A study of Homo sapiens with 183 samples.

Results

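The mitosis and G2/M genes are 51 genes that dividing cells use between the end of DNA replication and the separation of the daughter cells. They were listed by name, with earlier results of these data known, and make up 51 of the 19875 genes in each of the 8 deposited tables of messenger RNA levels. Every knockout or drug group was set against the control group of the same cell line and experiment, which gave 39 comparisons over 183 libraries. All 51 genes passed the filter on low values (a mean of 1 TPM or more across the libraries fitted, where TPM is the share of all transcripts corrected for transcript length) in all 39 comparisons, and no library listed any of them at 0.

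The study asked which factors sustain the identity of pancreatic ductal adenocarcinoma cells, in particular the transcription factor KLF5 and its coactivators, the ATPases RUVBL1 and RUVBL2. In 127 libraries the RNA came from day 5 of a CRISPR-Cas9 knockout in cells that stably express Cas9. These comprise 34 sgRosa controls, whose sgRNA cuts the ROSA26 safe harbor locus, and 33 sgKLF5, 19 sgRUVBL1, 13 sgRUVBL2, 12 sgRpa3, 8 sgCDK1, 4 sgCHD4 and 4 sgSERPINB5 libraries from the lines CFPAC-1, BxPC-3, T3M-4, AsPC-1 and SUIT-2. In the other 56 libraries cells spent 24 h in CB-6644, an allosteric inhibitor of the RUVBL1/2 ATPase, or in its solvent DMSO. AsPC-1 and T3M-4 cells in that experiment stably carried an empty vector (EV), RUVBL1 A62T or RUVBL2 dF109 and were selected with G418, whereas T84, A-375, H1048 and RH30 carried no vector that the labels name. AsPC-1 and SUIT-2 are pancreatic lines of the classical subtype and T3M-4 and BxPC-3 of the basal-like subtype, CFPAC-1 is a further pancreatic line, T84 is a colorectal line, A-375 a melanoma line, H1048 a small cell lung cancer line with tuft cell features and RH30 an alveolar rhabdomyosarcoma line. Each knockout sample is a mixed population of cut and uncut cells rather than a clone, and the labels do not say which sgRNA each library received. For knockouts of KLF5, RUVBL1, RUVBL2 and ROSA26 the study used a pair of independent sgRNAs for each gene and describes the libraries as biological replicates, so libraries of a group can share an sgRNA. Whether they came from separate cultures is not given in the labels, and p-values measure only the spread between these libraries.

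Entry into mitosis is driven by the kinase CDK1 bound to cyclin B (CCNB1, CCNB2) or cyclin A (CCNA2), which the phosphatases CDC25B and CDC25C switch on. The Aurora kinases, PLK1 and NEK2 then build the spindle, the checkpoint proteins BUB1, BUB1B, TTK and MAD2L1 hold back the anaphase activator CDC20 until chromosomes are attached, and the ubiquitin ligase that CDC20 activates destroys cyclin B and securin (PTTG1). Transcripts of these genes rise together in G2, mainly through FOXM1, MYBL2 and the MuvB complex, which bind CHR elements and work with NF-Y at CCAAT boxes. The p53 target CDKN1A (p21) shuts the same promoters down through the DREAM complex. In bulk RNA, a smaller share of cells in G2 or mitosis and less of a transcript per cell cannot be told apart.

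The depth of a library is unknown because TPM values add up to the same total in each. Between 11292 and 14024 genes reached 1 TPM in a library, and no pair of libraries held identical values. Marker genes fitted the labelled lines. All 5 epithelial markers were at 1 TPM or more in the controls of the 5 pancreatic lines and T84, as were all 4 intestinal markers in T84, 4 of 5 melanocytic markers in A-375 (PMEL was at 0.884 TPM), 4 of 5 tuft cell markers in H1048 (TRPM5 was at 0.0632 TPM) and 4 of 5 myogenic markers in RH30 (MYF6 was at 0.0836 TPM). RUVBL1 and RUVBL2 RNA was lower in every library cut for it than in every control of the same experiment, and so was SERPINB5 RNA, whereas CHD4 RNA overlapped its controls (83.95, 61.7, 97.5 and 87.6 TPM against 67.3, 65.8, 69.1 and 65.1). KLF5 RNA after sgKLF5 was lower than in every control in CFPAC-1 (131, 139 and 162 TPM against 205, 193, 199 and 169), higher than in every control in T3M-4 experiment 2 (533, 542, 604 and 583 against 329, 339, 399.8 and 262) and overlapped its controls in the other 6 comparisons. Cutting need not lower the RNA, so these levels do not check the labels. In CFPAC-1 the labels of the sgCDK1 and sgRpa3 libraries went against their CDK1 levels (values below), so these are called the libraries labelled sgCDK1 and sgRpa3. By the median correlation with the other libraries of its group, on the log2 scale over all genes tested, the 4 libraries farthest from their groups were T3M-4 sgKLF5 replicate 2 of experiment 1 (r = 0.929), SUIT-2 sgKLF5 replicate 4 (0.943), SUIT-2 sgRosa replicate 1 (0.946) and AsPC-1 sgRUVBL2 replicate 2 of experiment 3 (0.966). T3M-4 sgRosa replicate 4 of experiment 2 (0.979) was nearer to its group, but several results in T3M-4 changed without it. Counts without these libraries are given with the results. An experiment here is the first number of the replicate label.

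The promoters of the genes are shown because most of the 51 moved together in several comparisons. RefSeq on GRCh38.p14 gave 57 promoter windows (250 bases before to 50 after a start) for 45 of the 51 genes. Only the 250 bases before the start were searched in each window. TTTGAA or TTCGAA, the letters of the CHR element, stood there on either strand in 28 of the 57 windows (49.1%), against 14.3% of all 35116 promoter windows. CCAAT stood in 40 (70.2%) against 32%, both in 23 (40.4%) against 5.05%, and 2 or more CCAAT in 26 (45.6%) against 9.41%. A match of letters does not show that a factor binds there. The 250 bases before the start are printed for the kinase CDK1, the cyclin CCNB2, the anaphase activator CDC20, the kinase PLK1, the spindle protein HMMR, the CDK-binding subunit CKS2 and the condensin subunit NCAPH, genes that the comparisons below turn on, with both motifs in capitals, on whichever strand they stand. NCAPH holds no CHR letters in this window and a single CCAAT, and HMMR holds overlapping matches.
CDK1 (chr10:60778228-60778477, plus strand): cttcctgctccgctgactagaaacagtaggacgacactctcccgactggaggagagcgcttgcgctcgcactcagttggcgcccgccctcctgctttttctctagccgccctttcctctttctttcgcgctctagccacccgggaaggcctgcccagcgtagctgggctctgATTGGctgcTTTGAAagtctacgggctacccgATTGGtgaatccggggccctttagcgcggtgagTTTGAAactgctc
CCNB2 (chr15:59104896-59105145, plus strand): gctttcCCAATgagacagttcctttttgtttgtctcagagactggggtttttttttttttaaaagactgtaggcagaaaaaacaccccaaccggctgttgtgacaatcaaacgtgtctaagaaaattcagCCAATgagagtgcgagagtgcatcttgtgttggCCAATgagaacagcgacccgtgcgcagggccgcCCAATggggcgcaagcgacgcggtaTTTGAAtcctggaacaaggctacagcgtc
CDC20 (chr1:43358731-43358980, plus strand): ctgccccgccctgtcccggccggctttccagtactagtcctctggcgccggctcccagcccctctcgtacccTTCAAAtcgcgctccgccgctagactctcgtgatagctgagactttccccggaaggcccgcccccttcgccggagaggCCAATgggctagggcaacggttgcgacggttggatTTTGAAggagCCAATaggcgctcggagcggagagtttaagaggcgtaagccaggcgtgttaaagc
PLK1 (chr16:23678639-23678888, plus strand): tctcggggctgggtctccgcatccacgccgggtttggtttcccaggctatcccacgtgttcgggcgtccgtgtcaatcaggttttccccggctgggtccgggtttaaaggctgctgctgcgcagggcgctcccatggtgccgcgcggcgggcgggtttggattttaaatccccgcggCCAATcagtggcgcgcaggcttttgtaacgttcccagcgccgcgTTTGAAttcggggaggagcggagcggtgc
HMMR (chr5:163460382-163460631, plus strand): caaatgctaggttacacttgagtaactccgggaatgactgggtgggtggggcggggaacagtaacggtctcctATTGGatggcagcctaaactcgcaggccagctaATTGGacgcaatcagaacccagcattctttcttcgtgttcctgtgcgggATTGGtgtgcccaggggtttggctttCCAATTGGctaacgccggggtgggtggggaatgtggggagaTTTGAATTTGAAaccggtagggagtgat
CKS2 (chr9:89310945-89311194, plus strand): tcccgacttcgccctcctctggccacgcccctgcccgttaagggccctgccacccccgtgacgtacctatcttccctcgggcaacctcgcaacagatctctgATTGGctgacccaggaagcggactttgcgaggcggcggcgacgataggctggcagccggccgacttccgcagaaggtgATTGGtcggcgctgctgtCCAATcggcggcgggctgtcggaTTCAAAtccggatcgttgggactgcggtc
NCAPH (chr2:96335516-96335765, plus strand): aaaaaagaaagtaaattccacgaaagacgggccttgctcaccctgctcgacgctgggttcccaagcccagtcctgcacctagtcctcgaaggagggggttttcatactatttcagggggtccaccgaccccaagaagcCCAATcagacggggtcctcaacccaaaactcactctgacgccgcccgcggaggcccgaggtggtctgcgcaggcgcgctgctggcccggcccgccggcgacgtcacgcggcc

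In control libraries the set was well expressed in every line. TPM corrects for transcript length, but the longest transcripts varied most among the knockout controls, so ranks between genes are approximate. Of the genes named below, CKS1B, CKS2 and PTTG1 have short transcripts (779, 616 and 715 bases) and CENPE and KIF20B long ones (8541 and 6441). The part of length in these ranks was not tested. The median gene of the 51 stood at 43.8 TPM in SUIT-2, 61.3 in AsPC-1, 64.7 in BxPC-3, 74.4 in T84, 81.8 in T3M-4, 83.1 in CFPAC-1, 116 in A-375, 122 in RH30 and 148 in H1048, in tables that were normalized separately. The highest level belonged to CKS1B in AsPC-1, SUIT-2, T3M-4, CFPAC-1, T84 and H1048 (320 to 524 TPM), to its relative CKS2 in BxPC-3 and A-375 (447 and 575 TPM), and to PTTG1 in RH30 (481 TPM). The lowest level belonged to the kinetochore motor CENPE in AsPC-1, BxPC-3, T84 and SUIT-2 (down to 3.78 TPM in SUIT-2), to CDC25C in A-375, H1048 and RH30, to the kinesin KIF20B in T3M-4 and to the kinetochore protein NDC80 in CFPAC-1.

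**Figure D1:**
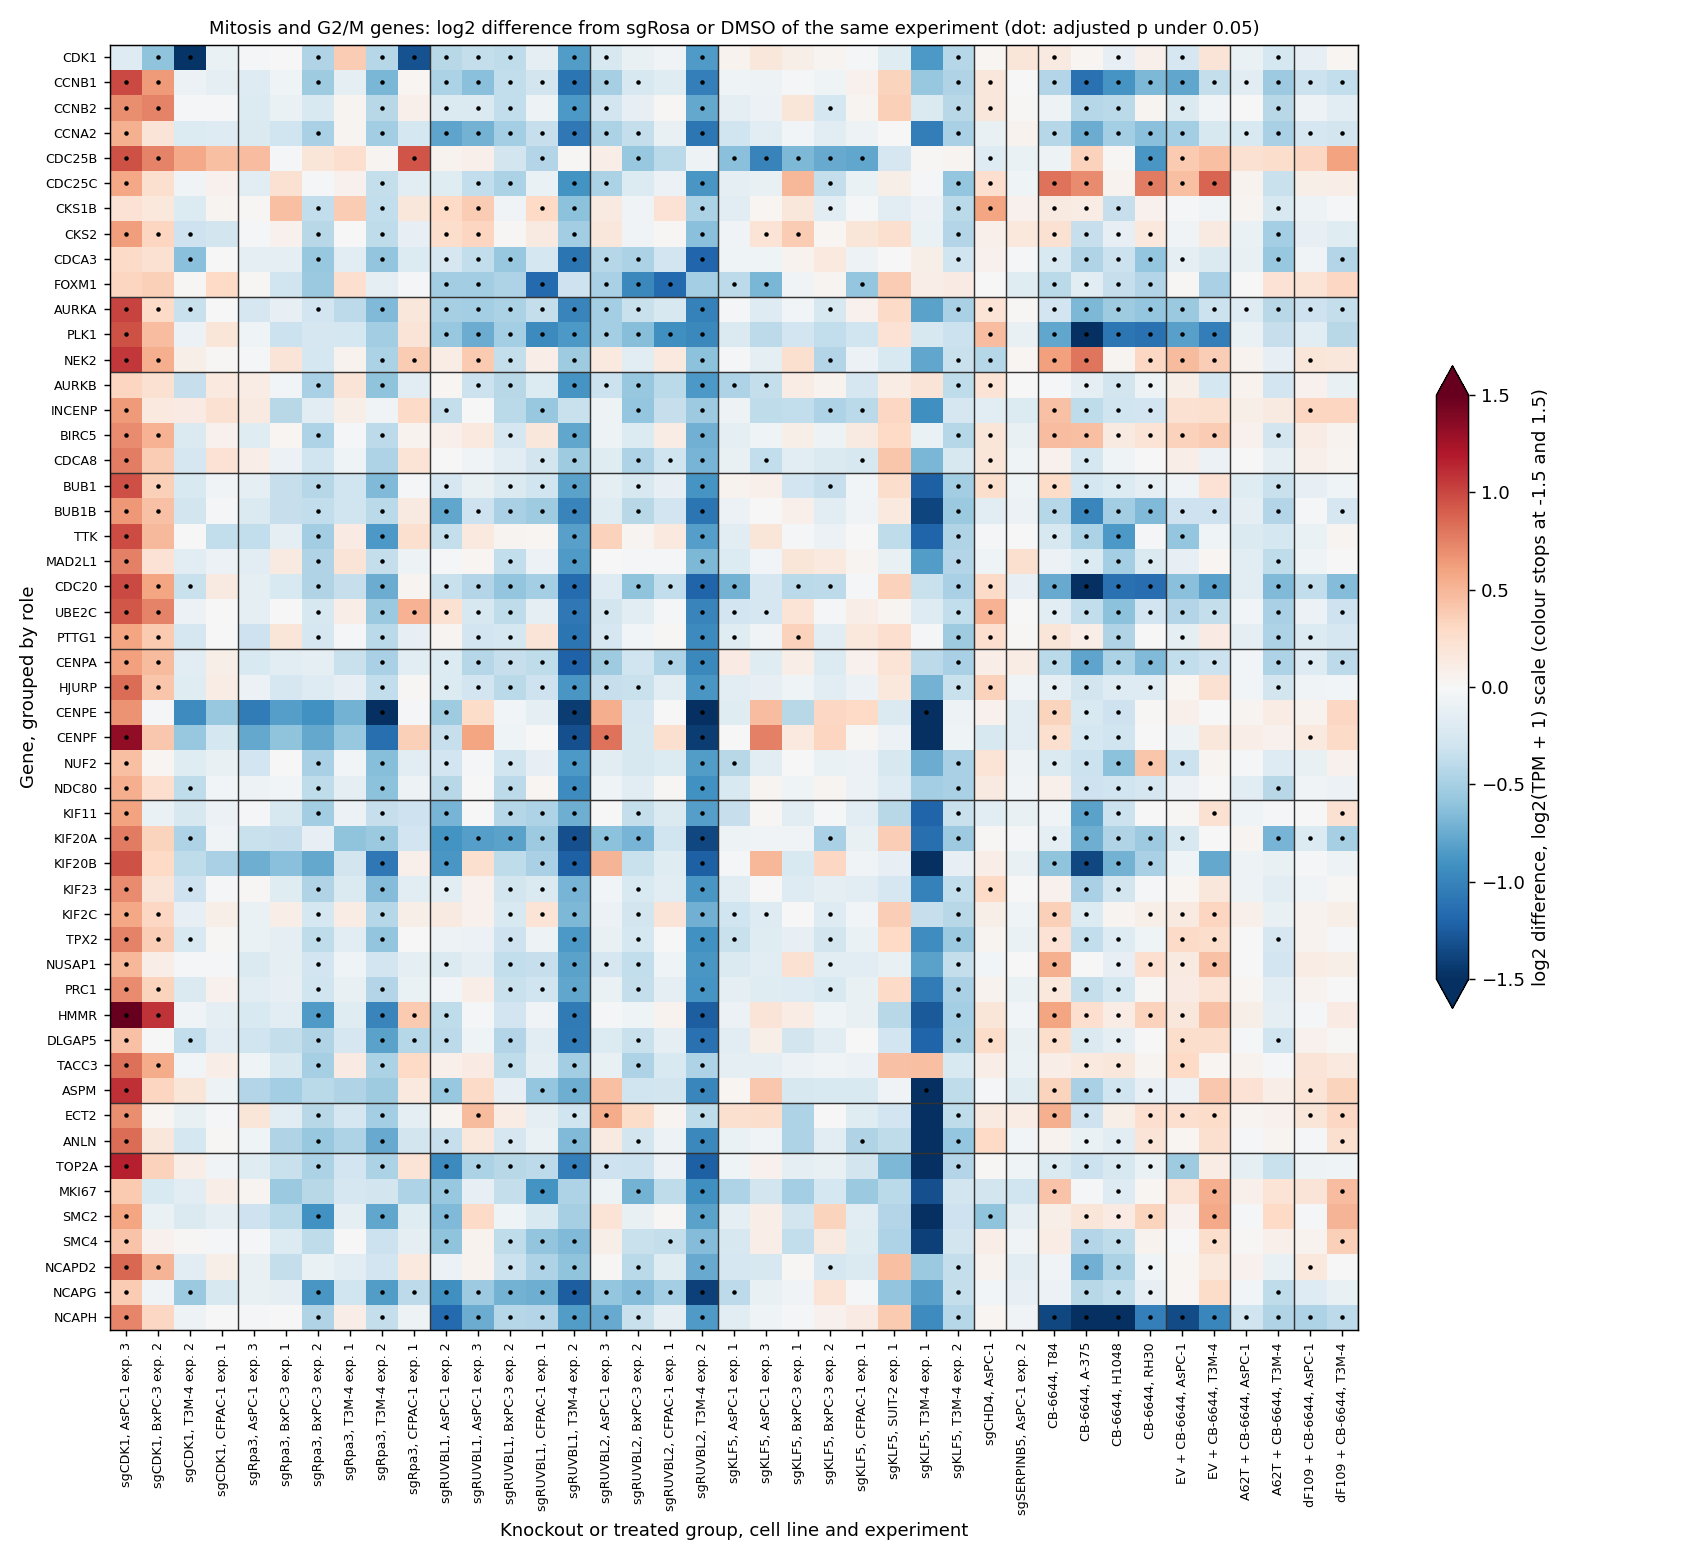
Heat map of the log2 difference of each of the 51 genes (vertical, grouped by role) from sgRosa or DMSO in the 39 comparisons (horizontal), with a dot where the limma adjusted p was under 0.05 and colours that stop at -1.5 and 1.5. The AsPC-1 and BxPC-3 sgCDK1 columns are mostly red, the T3M-4 sgRUVBL1 and sgRUVBL2 columns mostly blue, and the CB-6644 columns mix both.

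Over the 39 comparisons, genes of the set fell more often than they rose. In 26 comparisons more of them passed the test as lower than as higher, in 6 more were higher, and in 7 the counts were equal, including 6 with no gene past the threshold. CDC20 fell in 24 of the 39 and rose in 3, AURKA fell in 23 and rose in 3, and CCNB1 fell in 21 and rose in 3. The condensin subunit NCAPH fell in 21 and rose in 1. At the other end, NEK2 rose in 10 and fell in 7, the cytokinesis factor ECT2 rose in 9 and fell in 6, survivin (BIRC5) rose in 9 and fell in 7, and HMMR rose in 8 and fell in 6. CDCA3, FOXM1 and KIF20B rose in none of the 39. Comparisons of 1 line and experiment share their controls, so these counts do not come from 39 independent tests. Between comparisons the share of all genes called ran from 0% to 81.1%. The same tallies were not made over all genes, so they do not show what is particular to the set.

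CDK1, a gene of the set, was itself knocked out in AsPC-1, BxPC-3, T3M-4 and CFPAC-1. In AsPC-1, 43 of the 51 genes rose and none fell after sgCDK1 (16.7% of all genes tested were called, 10.3% higher and 6.44% lower). In BxPC-3, 20 rose and 1, CDK1 itself, fell (5.82% of all genes were called, 3.71% higher and 2.12% lower). In T3M-4 the direction was the opposite, with 11 lower and none higher (16.8% of all genes were called, 13% higher and 3.85% lower). The difference between the lines was not tested, since each line has a table of its own.

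CDK1 RNA itself differed least from its controls in AsPC-1, the line of these 3 where the set rose most. In AsPC-1 it stood at 156, 141, 155 and 135 TPM in the 4 sgRosa libraries and at 122 and 134 in the 2 sgCDK1 libraries, a log2 difference of -0.19 ± 0.10 (standard error, SE; limma with Benjamini-Hochberg adjustment over all genes, adjusted p = 0.202). In BxPC-3 it went from 160.3, 126, 130.2 and 136 TPM to 86.7 and 93.2 (-0.61 ± 0.09, adjusted p = 0.000523). In T3M-4 it went from 142, 128, 120.0 and 131 TPM to 40.2 and 53.1 (-1.47 ± 0.12, adjusted p = 2.88e-06). The groups did not overlap in any of the 3 lines, but the AsPC-1 difference did not pass the test. In CFPAC-1 the libraries labelled sgCDK1 held 194 and 207 TPM against 209, 206, 209 and 236 in sgRosa (-0.10 ± 0.09, adjusted p = 0.678), and those labelled sgRpa3 held 80.96 and 91.9 TPM (-1.31 ± 0.09, adjusted p = 1.20e-06). The loss of CDK1 RNA in CFPAC-1 was thus in the libraries labelled sgRpa3, while RPA3 RNA was 34.3, 33.2, 37.4 and 45.7 TPM in sgRosa, 27.9 and 32.7 in those labelled sgCDK1 and 30.3 and 31.7 in those labelled sgRpa3, with neither difference past the threshold.

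**Figure D2:**
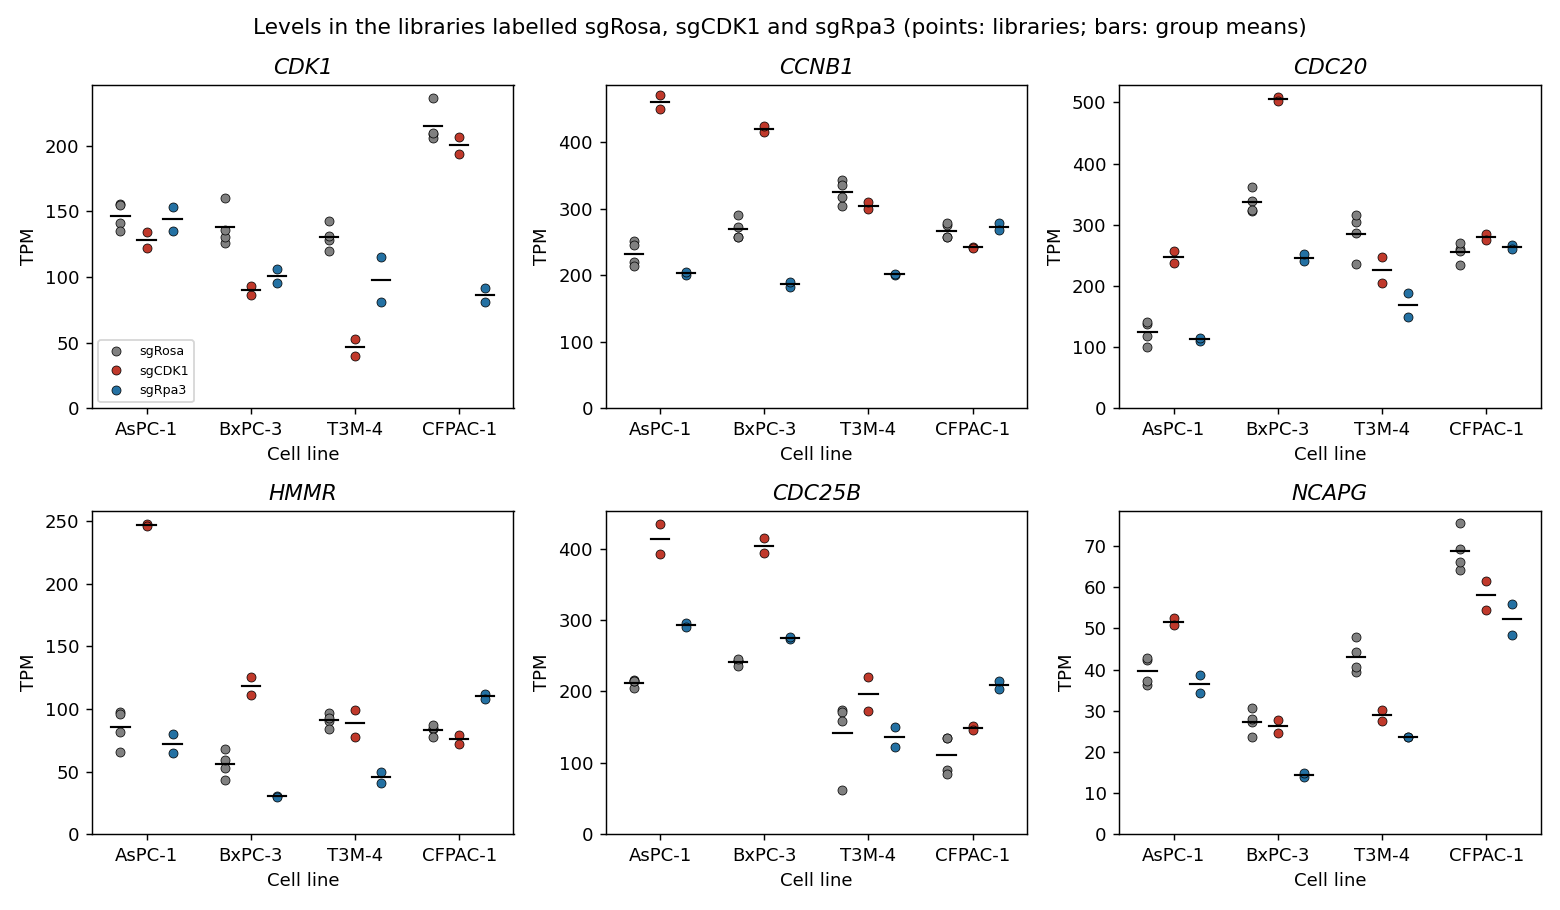
TPM of CDK1, CCNB1, CDC20, HMMR, CDC25B and NCAPG in the libraries labelled sgRosa, sgCDK1 and sgRpa3 of AsPC-1, BxPC-3, T3M-4 and CFPAC-1 (points are libraries, bars are group means). CCNB1 stands above its controls after sgCDK1 in AsPC-1 and BxPC-3 but not in T3M-4, and in CFPAC-1 the lowest CDK1 points carry the sgRpa3 label.

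In AsPC-1 all 8 roles took part in the rise. The counts were 6 of 10 genes of the mitotic entry switch, 3 of 3 mitotic kinases, 3 of 4 genes of the chromosomal passenger complex, 7 of 7 of the spindle checkpoint and anaphase trigger, 5 of 6 of the centromere and kinetochore, 11 of 12 spindle motors and microtubule binders, 2 of 2 cytokinesis genes and 6 of 7 chromosome structure genes. The median log2 difference of the 51 was 0.71, against 0.04 over all genes tested. CCNB1, the partner that CDK1 needs at mitotic entry, went from 251, 245, 220.1 and 213 TPM to 471 and 449 (0.99 ± 0.09, adjusted p = 2.19e-06). HMMR, a spindle assembly protein, went from 97.7, 81.5, 95.6 and 65.8 TPM to 247 and 246 (1.54 ± 0.13, adjusted p = 6.99e-07), the largest rise of the set. TOP2A, the topoisomerase that untangles sister chromatids, went from 116, 99.1, 122 and 93.2 TPM to 234 and 247 (1.16 ± 0.12). In all 3 genes both sgCDK1 libraries lay far above all 4 controls.

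The kinases showed the same direction in AsPC-1. NEK2, a centrosome kinase, went from 63.8, 54.5, 52.5 and 51.8 TPM to 117 and 116 (1.06 ± 0.10, adjusted p = 1.26e-06), and PLK1 from 114, 119.6, 98.3 and 90.1 to 213 and 194 (0.95 ± 0.18, adjusted p = 0.00102). CDC25B, which activates CDK1, went from 205, 216, 214 and 214 TPM to 435 and 391.9 (0.96 ± 0.21, adjusted p = 0.00405). The kinetochore protein CENPF had a wide spread among its controls, 22.3, 38.96, 52.2 and 15.1 TPM, and stood at 70.1 and 78.3 after sgCDK1 (1.33 ± 0.37, adjusted p = 0.0172). CENPF is among the 6 genes of the set with the longest transcripts, whose SD among the AsPC-1 controls was 0.64 on the log2 scale against 0.15 for the other genes. Of the 8 genes that did not pass, FOXM1, the transcription factor of the G2 programme, had a log2 difference of 0.32 ± 0.23 (adjusted p = 0.391) and the proliferation antigen MKI67 one of 0.40 ± 0.19 (adjusted p = 0.162).

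In BxPC-3 the 20 genes that rose were all among the 43 of AsPC-1, where 1.33% of all genes rose in both lines. The median of the set was 0.32 against -0.01 over all genes. CCNB1 went from 290.1, 272, 257 and 258 TPM to 415 and 424 (0.64 ± 0.06, adjusted p = 6.44e-06), CCNB2 from 132, 129.6, 138 and 136 to 223 and 228 (0.75 ± 0.09) and the ubiquitin-conjugating enzyme UBE2C, which works with CDC20, from 332, 319, 330.1 and 349.9 to 553 and 568 (0.75 ± 0.08). HMMR again rose most, from 68.2, 52.7, 59.2 and 43.3 TPM to 126 and 111 (1.09 ± 0.13, adjusted p = 4.65e-05). Of these genes no sgCDK1 library overlapped a control. Chromosome structure genes took little part, with 1 of 7 higher, and the condensin subunit NCAPG stood at 27.7 and 24.6 TPM against 30.7, 27.2, 27.99 and 23.5 in the controls. With 2 sgCDK1 libraries the count of 21 rested on each of them. It was 7 without sgCDK1 replicate 1 and 13 without replicate 2. The rise of CDC25B (243, 243, 235 and 246 TPM to 415 and 394, adjusted p = 0.0294) was lost without sgRosa replicate 4 (adjusted p = 0.0555).

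In T3M-4 the fall was small. The median of the set was -0.20 against 0.15 over all genes. Beside CDK1 itself, CDCA3, which triggers destruction of the kinase WEE1 at mitotic entry, went from 63.5, 65.3, 53.2 and 46.4 TPM to 38.3 and 34.1 (-0.63 ± 0.11, adjusted p = 0.00146). NCAPG went from 47.98, 44.3, 39.5 and 40.6 TPM to 27.6 and 30.2 (-0.56 ± 0.11), and the cytokinesis kinesin KIF20A from 96.7, 98.5, 92.9 and 91.8 to 70.8 and 66.2 (-0.47 ± 0.07). The other falls, in NDC80, DLGAP5, AURKA, CDC20, KIF23, CKS2 and TPX2, lay between -0.23 and -0.38. Of the 11, AURKA, CDC20, CKS2 and TPX2 had risen after sgCDK1 in both AsPC-1 and BxPC-3. CCNB1 stood at 299 and 309.8 TPM against 342, 335, 304 and 317 in the controls (-0.092 ± 0.07, adjusted p = 0.366), and HMMR at 77.7 and 99.5 against 96.9, 90.4, 84.4 and 92.97, with overlapping groups. The count of 11 was 5 without sgCDK1 replicate 1, 7 without sgCDK1 replicate 2 and 18 without sgRosa replicate 4, and under median-of-ratios scaling it was 21, all lower. In CFPAC-1 no gene passed limma's threshold in the libraries labelled sgCDK1 (6 at an unadjusted p under 0.05, 0% of all genes called).

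RPA3 is a subunit of the single-strand DNA binding complex that replication needs. After its knockout the set was lower in experiment 2 of BxPC-3 and of T3M-4. In experiment 1 its median relative to sgRosa was -0.26 and -0.022 in the sgRpa3 libraries of BxPC-3 and -0.23 and -0.017 in those of T3M-4. The sgRosa libraries there lay at -0.016 and 0.016 in BxPC-3 and at -0.042 and 0.042 in T3M-4. Over all genes the median differences were -0.13 and -0.038. With 2 libraries a group, experiment 1 does not show that the set was unchanged. RPA3 RNA differed from its controls by -0.44 on the log2 scale in AsPC-1 (adjusted p = 0.0664), by -0.50 in BxPC-3 experiment 2 (adjusted p = 0.0103) and by -0.34 in T3M-4 experiment 2 (adjusted p = 0.0156). The larger differences in RPA3 RNA were in experiment 1, where no gene of the set passed the threshold. There RPA3 went from 62.3 and 66.3 TPM to 22.1 and 25.6 in T3M-4 (-1.40 ± 0.22, adjusted p = 0.943) and from 32.7 and 33.2 to 21.1 and 20.4 in BxPC-3 (-0.64 ± 0.13, adjusted p = 0.143), with groups that did not overlap. In T3M-4 experiment 2 RPA3 was at 98.5, 80.6, 85.7 and 105 TPM in the controls, 67.5 and 77.3 in the sgRpa3 libraries and 69.9 and 79.1 in the sgCDK1 libraries. The set fell in BxPC-3 experiment 2, with 33 genes lower and none higher (20.8% of all genes were called, 9.12% higher and 11.6% lower), and in T3M-4 experiment 2, with 40 lower and none higher (24.6% of all genes were called, 18.4% higher and 6.2% lower). The medians were -0.42 and -0.48, against 0.02 and 0.15 over all genes. In both lines together 32 genes of the set were lower, against 3.89% of all genes.

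HMMR, which rose most after sgCDK1 in BxPC-3, went down to 30.4 and 29.9 TPM after sgRpa3 in that line (-0.85 ± 0.13, adjusted p = 0.000307) and to 41.05 and 49.9 TPM in T3M-4 (-0.99 ± 0.16, adjusted p = 0.000438). CCNB1 went down to 183 and 189 TPM in BxPC-3 (-0.53 ± 0.06) and to 200.5 and 202 in T3M-4 (-0.69 ± 0.07). The condensin subunit SMC2 went from 29.7, 27.2, 27.9 and 16.5 TPM to 11.2 and 14.3 in BxPC-3 (-0.91 ± 0.20, adjusted p = 0.00409), and the checkpoint kinase TTK from 33.8, 38.7, 32.6 and 36.4 to 16.97 and 21.4 in T3M-4 (-0.86 ± 0.17). All of these sgRpa3 libraries lay below their controls. The BxPC-3 count was 13 without sgRpa3 replicate 1 and 20 without replicate 2, and the T3M-4 count was 23 without sgRpa3 replicate 1 and 44 without sgRosa replicate 4.

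In the other experiments with sgRpa3 no gene of the set passed limma's threshold. These were AsPC-1 (11 genes at an unadjusted p under 0.05, 0.654% of all genes were called, 0.638% higher and 0.0164% lower), BxPC-3 experiment 1 (5 genes, 0.307% of all genes were called, 0.29% higher and 0.0161% lower) and T3M-4 experiment 1 (1 gene, 0%). The last of these had 2 libraries a group and included the sgKLF5 library that stood apart. In AsPC-1 the median was -0.13, and CDKN1A stood at 56.7 and 50.3 TPM after sgRpa3, against 39.4 and 35.4 after sgCDK1 and 23.1, 24.03, 27.6 and 27.9 in the controls. In the CFPAC-1 libraries labelled sgRpa3, which were those low in CDK1, 4 genes rose and 3 fell (11.6% of all genes were called, 8.17% higher and 3.39% lower). The 4 were CDC25B (135, 90.2, 134 and 84.8 TPM to 204 and 215), UBE2C (260.0, 275, 300.0 and 293 to 414 and 394), HMMR (83.9, 84.4, 77.8 and 87.5 to 112 and 108) and NEK2 (50.6, 47.7, 53.8 and 56.03 to 68.4 and 67.4). All 4 were also among the genes that rose after sgCDK1 in AsPC-1 and in BxPC-3. CDK1, DLGAP5 and NCAPG fell, and under median-of-ratios scaling the split was 4 higher and 5 lower.

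The direct difference between sgCDK1 and sgRpa3 was tested within each line. It was higher after sgCDK1 for 43 genes and lower for none in AsPC-1 (13.3% of all genes were called, 6.59% higher and 6.69% lower) and for 41 and none in BxPC-3 (26.6% of all genes were called, 14.4% higher and 12.2% lower). In T3M-4, where the set fell after both, 9 were higher and 1, CDK1, was lower (2.92% of all genes were called, 1.95% higher and 0.974% lower). The 9 were HMMR (0.94 ± 0.19, adjusted p = 0.00941), TTK (0.86), CCNB1 (0.59), NEK2, the cytokinesis scaffold ANLN, UBE2C, BUB1, CCNB2 and the spindle assembly factor TPX2, the last at 0.36. HMMR differed by 1.76 ± 0.15 in AsPC-1 and by 1.94 ± 0.15 in BxPC-3. In CFPAC-1 the libraries labelled sgCDK1 differed from those labelled sgRpa3 in CDK1 (1.21 ± 0.11) and UBE2C (-0.52 ± 0.09) among the 51 (0.62% of all genes called).

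RUVBL1 and RUVBL2 form a hexameric ring that helps assemble chromatin remodelers, RNA polymerase II and the kinases of the PIKK family. After knockout of either, most genes of the set fell in T3M-4 and BxPC-3. In AsPC-1 some rose as well, and in CFPAC-1 the counts were nearer to the shares of all genes called. In T3M-4 46 genes fell and none rose after sgRUVBL1 (60.5% of all genes were called, 45.9% higher and 14.6% lower), and 49 fell and none rose after sgRUVBL2 (54.5% of all genes were called, 39.3% higher and 15.2% lower). The medians were -0.85 and -0.87, against 0.25 and 0.19 over all genes, and without sgRosa replicate 4 the counts were 50 and 51. RUVBL1 RNA was at 156, 161, 149.6 and 150.3 TPM in the controls and at 44.2, 41.6 and 47.3 in the sgRUVBL1 libraries, and RUVBL2 RNA went from 154, 158, 156 and 158 to 50.1, 41.8, 46.3 and 43.9 in the sgRUVBL2 libraries.

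**Figure D3:**
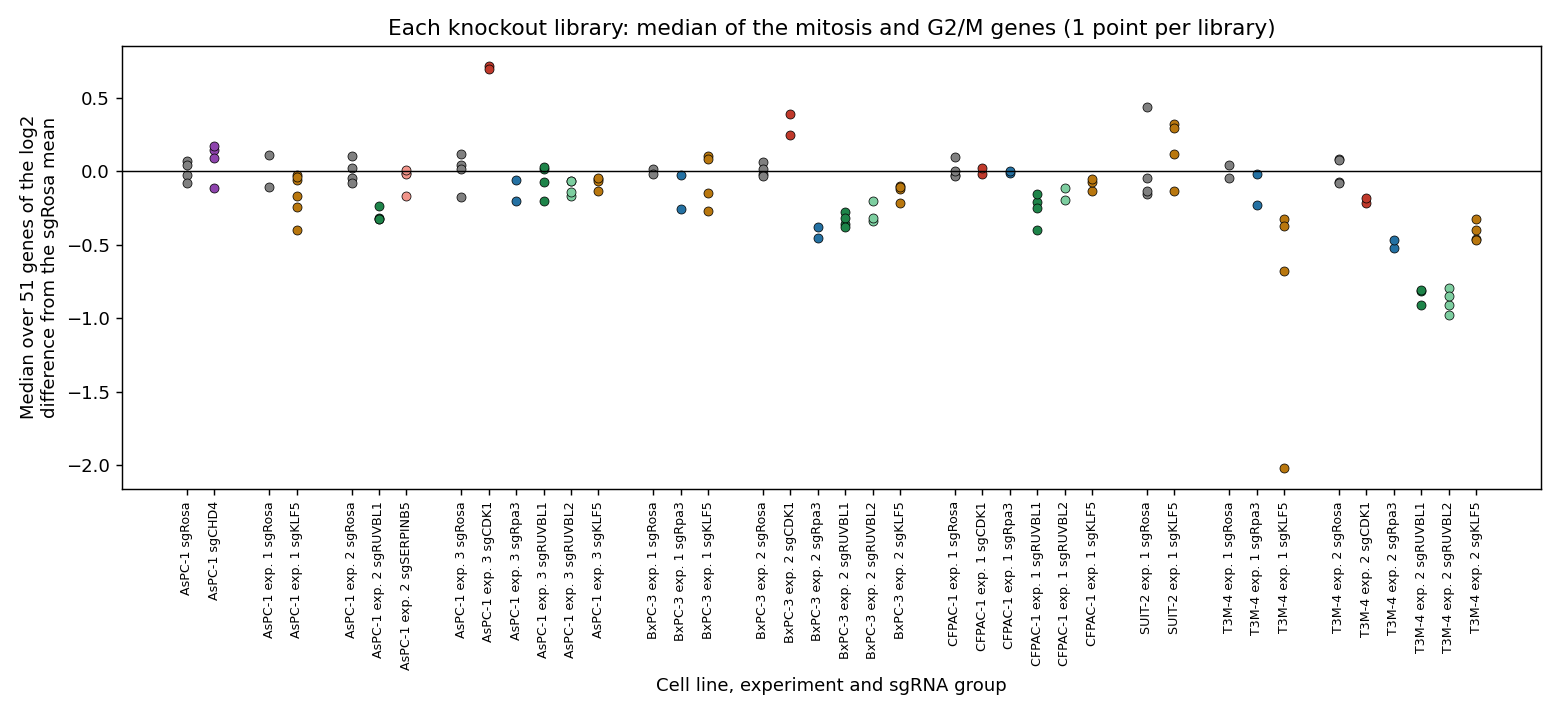
Median over the 51 genes of the log2 difference from the sgRosa mean (vertical) in each knockout library (1 point each), by line, experiment and sgRNA group (horizontal). The T3M-4 sgRUVBL1 and sgRUVBL2 libraries lie together far below 0, the 2 AsPC-1 sgCDK1 libraries lie above all sgRosa libraries, and 1 T3M-4 sgKLF5 library of experiment 1 lies at -2.02.

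In T3M-4 CCNB1 stood at 342, 335, 304 and 317 TPM in sgRosa, at 143, 154 and 155 after sgRUVBL1 (-1.10 ± 0.06, adjusted p = 6.99e-10) and at 168, 151, 149 and 169 after sgRUVBL2 (-1.02 ± 0.06, adjusted p = 7.05e-10). KIF20A stood at 96.7, 98.5, 92.9 and 91.8 TPM in sgRosa, at 34.4, 38.99 and 38.8 after sgRUVBL1 (-1.32 ± 0.06) and at 36.5, 36.8, 34.7 and 36.9 after sgRUVBL2 (-1.37 ± 0.06). CDC20 went from 305, 315, 287 and 236 TPM to 126, 128 and 127 and 116, 118, 132 and 128 after the respective knockouts. The groups were far apart in these genes, and the 7 knockout libraries lay close together. Among the few that did not pass, FOXM1 had a log2 difference of -0.31 after sgRUVBL1 (adjusted p = 0.437) and -0.51 after sgRUVBL2 (adjusted p = 0.179). A single control decided this, as FOXM1 stood at 92.4, 106, 95.3 and 24.3 TPM in the 4 sgRosa libraries. Without sgRosa replicate 4 the differences were -0.80 and -0.998 (adjusted p = 0.000134 and 7.52e-06).

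In AsPC-1 the fall was uneven. After sgRUVBL1, 34 genes fell and 3 rose in experiment 2 (55.8% of all genes were called, 30% higher and 25.8% lower) and 20 fell and 4 rose in experiment 3 (51.9% of all genes were called, 36.6% higher and 15.2% lower), with medians of -0.33 and -0.06, and 16 of the 51 fell in both against 11.9% of all genes. After sgRUVBL2, 19 fell and 2 rose (43.2% of all genes were called, 32.2% higher and 11% lower), and 20 genes were called without sgRUVBL2 replicate 2. NCAPH fell most in experiment 2, from 51.02, 47.4, 56.7 and 54.9 TPM to 22.8, 24.95, 21.2 and 22.4 (-1.17 ± 0.07, adjusted p = 6.79e-09), and in experiment 3 went from 36.4, 34.999, 35.3 and 31.5 to 19.8, 22.4, 22.97 and 16.4 (-0.74 ± 0.14). KIF20A went from 61.8, 63.3, 53.4 and 44.9 TPM to 29.2, 36.3, 32.2 and 25.9 after sgRUVBL1 (-0.83 ± 0.11) and to 41.1, 35.1, 32.3 and 35.2 after sgRUVBL2 (-0.62 ± 0.11). The knockout libraries of both genes lay below all their controls.

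The genes that rose in AsPC-1 included both small CDK-binding subunits. CKS1B went from 549, 504, 482 and 488 TPM to 661, 641, 597 and 584 in experiment 2 (0.30 ± 0.06) and from 326, 306, 329 and 303 to 421, 382, 412 and 429 in experiment 3 (0.38 ± 0.07, adjusted p = 0.00011). CKS2 went from 268, 229.7, 226 and 205 TPM to 298, 283, 291 and 284 in experiment 3 (0.32 ± 0.07) and rose by 0.26 in experiment 2. UBE2C rose in experiment 2 (0.23), and NEK2 (0.40) and ECT2 (0.48) in experiment 3, and ECT2 (0.55) and CENPF (0.81) rose after sgRUVBL2. CKS1B was the only gene of the 51 that differed between sgRUVBL1 and sgRUVBL2 in any line in a direct test (0.24 ± 0.07, adjusted p = 0.0473 in AsPC-1, 3.71% of all genes called). In BxPC-3, T3M-4 and CFPAC-1 limma called none in that test, with at most 0.0323% of all genes called in any of them.

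In BxPC-3, 36 genes fell after sgRUVBL1 (16% of all genes were called, 8.29% higher and 7.67% lower) and 28 after sgRUVBL2 (9.76% of all genes were called, 4.27% higher and 5.48% lower), and none rose. KIF20A went from 78.2, 75.8, 87.6 and 85.6 TPM to 43.2, 53.3, 53.5 and 37.8 after sgRUVBL1 (-0.80 ± 0.10) and to 43.9, 54.1 and 52.6 after sgRUVBL2 (-0.70 ± 0.11). NCAPG stood at 30.7, 27.2, 27.99 and 23.5 TPM in the controls and at 15.7, 18.3, 15.9 and 15.5 after sgRUVBL1 (-0.71 ± 0.10). The count after sgRUVBL2 was 18 without sgRUVBL2 replicate 3 and 18 without sgRosa replicate 1. That sgRUVBL2 library also set the fall of FOXM1, which went from 60.6, 59.8, 51.9 and 44.9 TPM to 40.1, 42.4 and 11.5 (adjusted p = 0.0419).

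In CFPAC-1, 26 genes fell and 2 rose after sgRUVBL1 (43.8% of all genes were called, 6.54% higher and 37.3% lower), and 7 fell and none rose in the 2 sgRUVBL2 libraries (12.1% of all genes were called, 2.83% higher and 9.26% lower). Under median-of-ratios scaling, which takes out a shift of -0.20 in the median of all genes, the split after sgRUVBL1 was 6 higher and 12 lower, and 4 genes were called after sgRUVBL2. The medians of the set were -0.27 and -0.15, against -0.20 and -0.087 over all genes, so the set lay near the shift of all genes here. Transcripts over 6000 bases also stood lower than those under 2000 bases, by -0.67, -0.092, -0.53 and -0.25 on the log2 scale in the sgRUVBL1 libraries and -0.22 and -0.17 in the sgRUVBL2 libraries, against -0.058 to 0.056 in sgRosa, and the part of this in the falls was not tested. FOXM1 led the falls here, from 60.5, 68.2, 63.6 and 35.7 TPM to 28.05, 20.9, 29.5 and 19.7 after sgRUVBL1 (-1.16 ± 0.17, adjusted p = 0.000112) and to 24.9 and 23.5 after sgRUVBL2 (-1.16 ± 0.20). PLK1 went from 105, 104, 111 and 70.8 TPM to 45.4, 44.4, 60.7 and 47.7 (-0.95 ± 0.12) and 53.8 and 47.4 (-0.91 ± 0.15). In both genes all knockout libraries lay below all controls. CKS1B rose after sgRUVBL1 in this line as well (444, 419, 446 and 468 TPM to 609, 503, 551 and 527, 0.30 ± 0.06), together with the microtubule depolymerase KIF2C (0.21).

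Across the 4 lines 12 genes fell in each after sgRUVBL1 (AsPC-1 by experiment 3), against 2.11% of all genes. They were CCNB1 and CCNA2, AURKA and PLK1, the checkpoint and anaphase genes BUB1B and CDC20, the centromeric histone CENPA and its chaperone HJURP, KIF20A, TOP2A, and the condensin subunits NCAPG and NCAPH. After sgRUVBL2 NCAPG and PLK1 fell in all 4 lines, against 0.576% of all genes. MYBL2, which drives these promoters with FOXM1 and is not one of the 51, fell in every sgRUVBL1 and sgRUVBL2 comparison, by log2 differences from -0.43 to -0.89. It did not follow the set everywhere. After sgKLF5 in BxPC-3 experiment 2, where 15 genes of the set fell, MYBL2 stood at 117, 119, 106 and 112 TPM. Its controls there were at 87.5, 86.6, 62.5 and 63.3. After CB-6644 in A-375, where 39 fell, it stood at 139, 142, 142 and 138 TPM, against 130, 136, 115 and 115 in DMSO. The part of MYBL2 in the falls was not tested.

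Knockout of KLF5, the factor the study centred on, moved fewer genes of the set than knockout of RUVBL1 in each of the 4 experiments that held both. The most were in T3M-4 experiment 2, where 38 genes fell and none rose (34.6% of all genes were called, 23.4% higher and 11.2% lower). In AsPC-1, 10 fell and none rose in experiment 1 (25.9% of all genes were called, 17.1% higher and 8.81% lower), and 6 fell and 1 rose in experiment 3 (27.8% of all genes were called, 15.4% higher and 12.3% lower). In BxPC-3, 2 fell and 2 rose in experiment 1 (16.2% of all genes were called, 8.09% higher and 8.1% lower), and 15 fell and none rose in experiment 2 (34.6% of all genes were called, 21% higher and 13.6% lower). In CFPAC-1 5 fell (16.2% of all genes were called, 3.26% higher and 13% lower), and in T3M-4 experiment 1 2 fell (5.72% of all genes were called, 3.26% higher and 2.46% lower). In SUIT-2 no gene passed limma's threshold, and none reached an unadjusted p under 0.05 (3.94% of all genes were called, 2.94% higher and 1% lower), and the count stayed at 0 with each library left out in turn. The SUIT-2 sgRosa libraries spread widely, with medians of the set from -0.16 to 0.44. SUIT-2 thus does not show that the set was unchanged. The direct difference of sgRUVBL1 from sgKLF5 was lower for 38 genes and higher for none in T3M-4 (45.8% of all genes were called, 30.5% higher and 15.3% lower), lower for 23 and higher for 1 in BxPC-3 (44% of all genes were called, 18.8% higher and 25.2% lower), lower for 14 and higher for 2 in CFPAC-1 (30.9% of all genes were called, 10.3% higher and 20.7% lower), and lower for 13 and higher for 10 in AsPC-1 (58.5% of all genes were called, 39.1% higher and 19.4% lower). NCAPG differed by -0.87, -0.91, -0.72 and -0.44 in these lines, in that order.

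CDC25B fell after sgKLF5 in 5 of the 8 comparisons, CDC20 and KIF2C in 4 each, and no other gene of the set in more than 3. In AsPC-1 it went from 236 and 245 TPM to 159, 147, 175, 150.4, 147 and 158 in experiment 1 (-0.62 ± 0.07, adjusted p = 0.00016) and from 205, 216, 214 and 214 to 79.99, 140.4, 137 and 81.5 in experiment 3 (-0.998 ± 0.17, adjusted p = 0.000188). In BxPC-3 it went from 163 and 163 TPM to 109, 111, 85.3 and 103 in experiment 1 (-0.68 ± 0.14) and from 243, 243, 235 and 246 to 137, 142, 146 and 143 in experiment 2 (-0.76 ± 0.16). In CFPAC-1 it went from 135, 90.2, 134 and 84.8 TPM to 69.4, 57.5 and 62.8 (-0.78 ± 0.14, adjusted p = 0.00482). In all 5 comparisons every sgKLF5 library lay below every control. In T3M-4 experiment 2 the difference was 0.039 ± 0.23 (adjusted p = 0.911), with controls at 173, 172, 158 and 62.1 TPM and sgKLF5 at 131, 143, 128 and 137, and without sgRosa replicate 4 it was -0.32 (adjusted p = 0.0298). In SUIT-2 the groups overlapped (25.7, 68.1, 43.4 and 46.03 TPM against 42.8, 24.7, 37.9 and 42.1). A direct test put CDC25B higher after sgRUVBL1 than after sgKLF5 in AsPC-1 (1.07 ± 0.17) and BxPC-3 (0.48 ± 0.16).

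In T3M-4 experiment 2 the fall after sgKLF5 was broad and modest, with a median of -0.42 against 0.10 over all genes, and 45 genes passed without sgRosa replicate 4. CCNB1 stood at 232, 226, 244 and 249 TPM after sgKLF5 (-0.45 ± 0.06, adjusted p = 8.54e-06), against the control levels given above. TPX2 went from 265, 259, 237 and 227 TPM to 157, 164, 177 and 173 (-0.55 ± 0.06) and KIF20A to 63.6, 63.5, 67.7 and 65.1 (-0.54 ± 0.06). No sgKLF5 library overlapped a control in these genes. In T3M-4 experiment 1 the 2 genes called, CENPE (32.6 and 34.7 TPM to 8.23, 3.67, 13.4 and 10.6, adjusted p = 0.0467) and the spindle pole protein ASPM (26.7 and 28.9 to 8.38, 4.62, 10.6 and 11.96, adjusted p = 0.0484), both have transcripts over 6000 bases. The median of the set was -0.82 against -0.22 over all genes. Over all genes, transcripts over 6000 bases stood lower than those under 2000 bases in every sgKLF5 library of this experiment, by -0.80, -1.78, -0.40 and -0.36 on the log2 scale, against -0.022 and 0.022 in sgRosa, and the part of this in the fall was not tested. Without sgKLF5 replicate 2, whose median was -2.02, 30 genes passed.

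In AsPC-1 experiment 1 CDC20 fell most, from 223 and 237 TPM to 139, 130.1, 144, 138, 149 and 141 (-0.71 ± 0.06, adjusted p = 2.54e-05). FOXM1 fell in AsPC-1 experiment 1 (-0.39, adjusted p = 0.0244), AsPC-1 experiment 3 (-0.68, adjusted p = 0.00977) and CFPAC-1 (-0.58, adjusted p = 0.0381). In BxPC-3 experiment 1 CKS2 rose from 457 and 441 TPM to 547, 606, 587 and 595 (0.38 ± 0.06) and PTTG1 from 225 and 227 to 285, 288, 297 and 280.1 (0.35 ± 0.06). The AsPC-1 counts rested on single libraries. In experiment 1 the count was 4 without either sgRosa library. In experiment 3 it was 4 without sgKLF5 replicate 1, sgRosa replicate 1 or sgRosa replicate 2, and 12 without sgRosa replicate 4. With scaling 20 genes fell and none rose in AsPC-1 experiment 1, and the splits were 0 higher and 10 lower in AsPC-1 experiment 3 and 1 higher and 1 lower in CFPAC-1.

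In AsPC-1, knockout of the chromatin remodeler CHD4 raised 16 genes of the set and lowered 3 (50% of all genes were called, 23.3% higher and 26.7% lower), with a median of 0.08. The share of the set that was called was thus below that of all genes. CKS1B went from 417, 433, 411 and 394 TPM to 632, 655, 606 and 608 (0.59 ± 0.04, adjusted p = 3.19e-07), UBE2C from 345, 380.5, 371 and 367 to 521, 533, 510.2 and 531 (0.52 ± 0.04) and PLK1 from 124, 124, 128 and 123 to 175, 164, 166 and 184 (0.46 ± 0.05). The falls were SMC2 (47.2, 44.1, 37.5 and 32.2 TPM to 28.5, 18.01, 31.4 and 27.9, -0.60 ± 0.16), NEK2 (69.8, 61.1, 61.3 and 59.3 to 45.3, 43.7, 47.7 and 48.7, -0.43 ± 0.06) and CDC25B (-0.20). In all 6 genes the groups did not overlap. Loss of the serpin SERPINB5 moved no gene of the set past limma's threshold (5 at an unadjusted p under 0.05, 0.0343% of all genes called).

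After 24 h in CB-6644 genes of the set went both ways. In T84 20 genes rose and 17 fell (71.4% of all genes were called, 47.2% higher and 24.2% lower), so the calls there were near the share of all genes. In A-375 9 rose and 39 fell (81.1% of all genes were called, 51.5% higher and 29.7% lower). In H1048 4 rose and 41 fell (77.9% of all genes were called, 53.9% higher and 24% lower), and in RH30 11 rose and 24 fell (77.7% of all genes were called, 50.4% higher and 27.3% lower). Scaling by the median of ratios takes out shifts of 0.13 to 0.18 in the median of all genes and turned the splits to 13 higher and 24 lower in T84, 5 and 43 in A-375, 0 and 45 in H1048 and 7 and 38 in RH30. The effect differed between the 4 lines for 50 of the 51 genes (limma interaction, 86.2% of all genes called), all but the centrosomal protein TACC3.

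**Figure D4:**
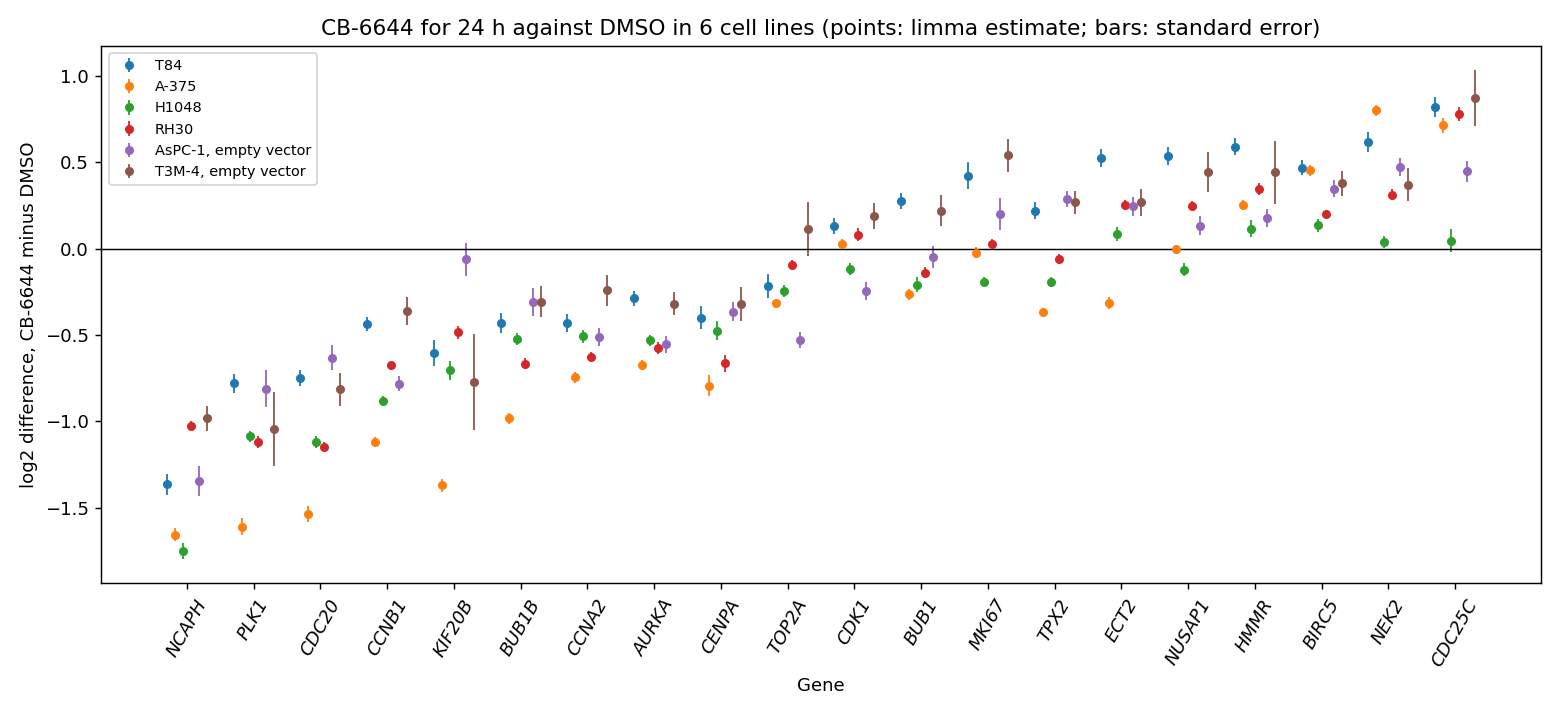
Log2 difference after CB-6644 against DMSO (vertical, points are limma estimates and bars their standard errors) of 20 genes of the set in T84, A-375, H1048, RH30 and in AsPC-1 and T3M-4 with the empty vector. NCAPH, PLK1, CDC20 and CCNB1 lie below 0 in the first 4 lines, while NEK2 and CDC25C lie near or above 0.

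NCAPH fell in all 4 lines. It went from 44.2, 48.3, 45.03 and 50.7 TPM to 18.1, 18.2, 16.5 and 17.8 in T84 (-1.36 ± 0.06), from 53.6, 52.1, 50.7 and 50.8 to 15.5, 15.6, 15.2 and 16.7 in A-375 (-1.66 ± 0.04), from 85.8, 82.2, 86.7 and 79.3 to 24.1, 22.6, 25.8 and 23.9 in H1048 (-1.75 ± 0.05) and from 86.99, 87.6, 89.2 and 87.01 to 43.6, 41.02, 42.9 and 42.3 in RH30 (-1.03 ± 0.03). The log2 differences of PLK1 were -0.78, -1.61, -1.09 and -1.12 in the same order, those of CDC20 -0.75, -1.54, -1.12 and -1.15, and those of CCNB1 -0.44, -1.12, -0.88 and -0.68. All of these passed the test. In all, 15 genes fell in each of the 4 lines (11% of all genes did) and 2 rose in each (28.5%). Beside these 4 they were CCNA2, CDCA3, FOXM1, AURKA, BUB1B, UBE2C, CENPA, HJURP, KIF20A, KIF20B and TOP2A. CDKN1A, the inhibitor that acts on this programme, rose by 0.83, 2.04, 1.59 and 0.78 in the same 4 lines, and its part in the falls was not tested.

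A few genes went the other way. NEK2 rose in A-375, from 67.2, 67.2, 67.5 and 69.6 TPM to 119, 123, 113 and 122 (0.80 ± 0.03), and in T84, from 30.3, 34.3, 32.4 and 34.9 to 54.9, 49.4, 48.7 and 51.5 (0.62 ± 0.06). It rose in RH30 as well (0.31) and in H1048 stood at a difference of 0.038 (adjusted p = 0.343). CDC25C rose by 0.82 in T84, 0.71 in A-375 and 0.78 in RH30, with 0.047 in H1048 (adjusted p = 0.539). The 2 genes higher in all 4 lines were BIRC5 (0.47, 0.46, 0.14 and 0.20) and HMMR (0.59, 0.25, 0.12 and 0.35), and in H1048 scaling turned both, to -0.048 and -0.067.

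The largest interaction statistic of the 51 belonged to CDC25B. It went from 211, 211, 213 and 212 TPM to 116, 119, 113 and 110.4 in RH30 (-0.88 ± 0.03) and rose by 0.35 in A-375, with -0.074 in T84 (adjusted p = 0.186) and 0.014 in H1048. ECT2 rose in T84 (0.53) and fell in A-375 (-0.31), and so did TPX2 (0.22 and -0.37).

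RUVBL1 A62T and RUVBL2 dF109 are variants that make cells resistant to CB-6644, and the comparison addresses which effects of the inhibitor pass through its target. In AsPC-1 with the empty vector 11 genes rose and 17 fell after CB-6644 (64.4% of all genes were called, 47.2% higher and 17.2% lower). With RUVBL1 A62T none rose and 4 fell (12.7% of all genes were called, 10.8% higher and 1.98% lower), and with RUVBL2 dF109 6 rose and 8 fell (33.4% of all genes were called, 29.3% higher and 4.1% lower). The 3 DMSO libraries, 1 of each vector, served as the common control. A difference between vectors that is present without CB-6644 thus cannot be told apart from a difference in response, here and in the direct tests. With scaling the splits were 2 higher and 31 lower for the empty vector, 0 and 11 for A62T and 0 and 23 for dF109, since the median of all genes lay 0.19, 0.10 and 0.14 above its control. Empty vector differed directly from A62T in 7 genes higher and 16 lower (51.1% of all genes were called, 32.3% higher and 18.9% lower), and from dF109 in 7 higher and 16 lower (47.2% of all genes were called, 26.3% higher and 20.9% lower). The count with A62T was 0 without its CB-6644 replicate 1 and 11 without the A62T DMSO library.

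NCAPH showed the widest gap in AsPC-1. It stood at 32.6, 31.2 and 39.7 TPM in DMSO, 13.3, 13.4 and 12.1 in CB-6644 with the empty vector (-1.34 ± 0.09), 29.2, 27.97 and 25.8 with A62T (-0.30 ± 0.09, adjusted p = 0.0408) and 25.7, 24.1 and 24.2 with dF109 (-0.46 ± 0.09). PLK1 stood at 85.5, 81.02 and 98.8 TPM in DMSO, 47.98, 48.02 and 53.7 with the empty vector, 92.6, 73.4 and 81.4 with A62T and 82.4, 86.1 and 67.3 with dF109. The libraries with the empty vector lay below all others in both genes. The direct difference between empty vector and A62T was -1.04 ± 0.09 for NCAPH, -0.71 ± 0.11 for PLK1 and -0.61 ± 0.04 for CCNB1, and NEK2 (0.42) and CDC25C (0.39) were higher with the empty vector. CDKN1A in DMSO was at 48.5 TPM with A62T, 44.5 with dF109 and 81.9 with the empty vector, so it was highest with the empty vector without CB-6644 too. In CB-6644 it was at 144, 149 and 164 TPM with the empty vector, 60.3, 56.04 and 61.7 with A62T and 60.5, 59.9 and 58.7 with dF109.

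**Figure D5:**
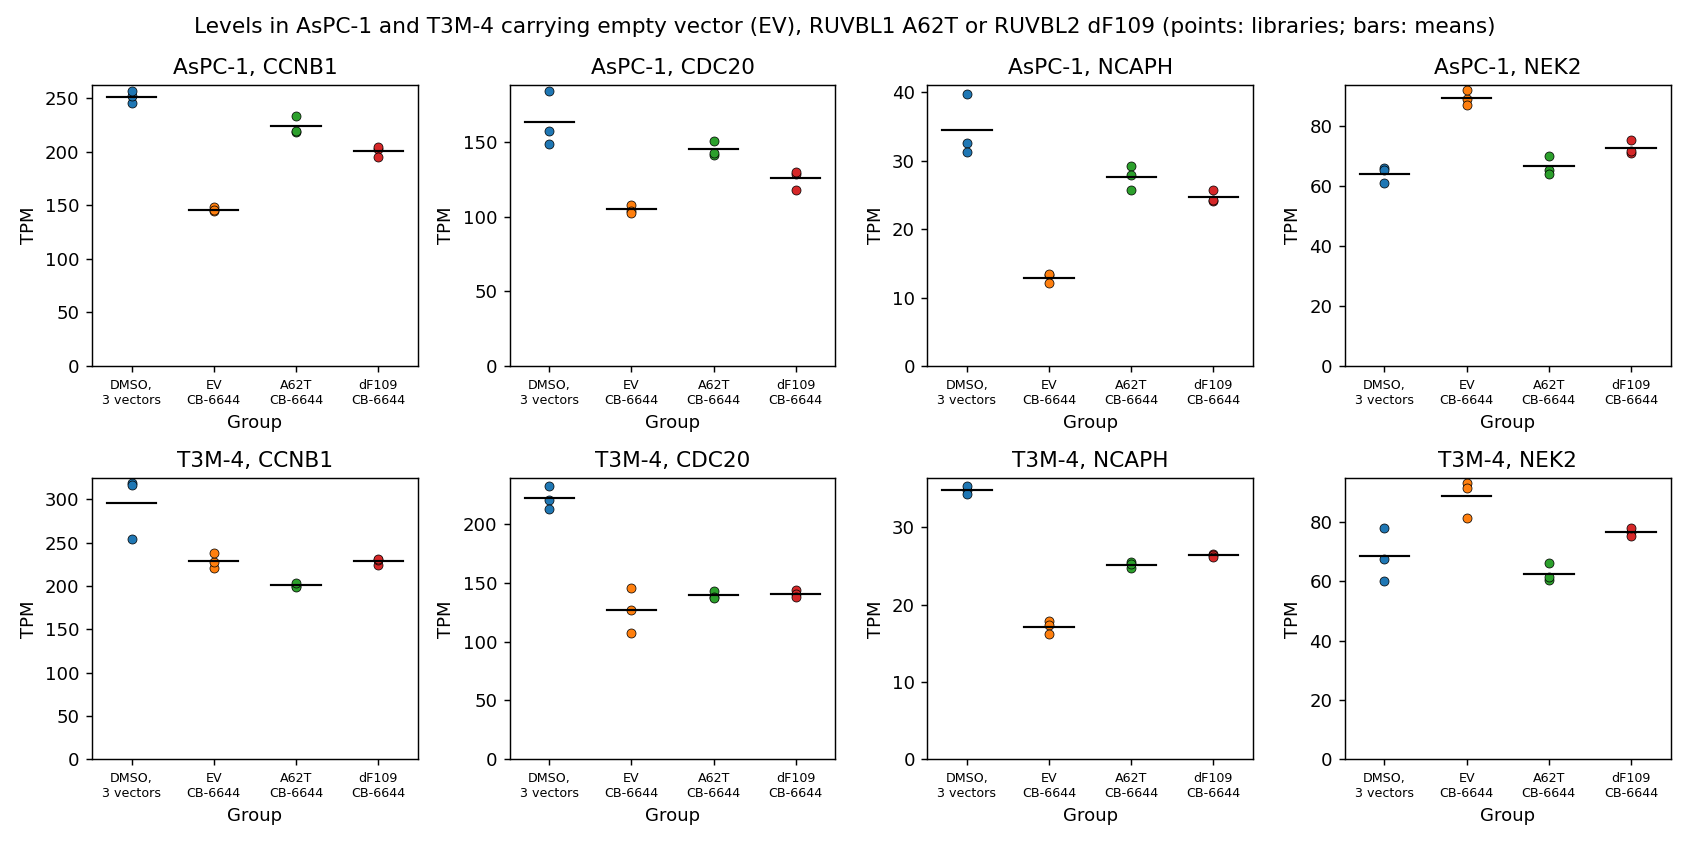
TPM of CCNB1, CDC20, NCAPH and NEK2 in AsPC-1 (upper) and T3M-4 (lower) in DMSO with 3 vectors and in CB-6644 with the empty vector (EV), RUVBL1 A62T or RUVBL2 dF109 (points are libraries, bars are means). NCAPH is lowest with the empty vector in both lines, and CDC20 in T3M-4 is below DMSO with all 3 vectors.

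In T3M-4 more genes fell with A62T than with the empty vector. With the empty vector 11 genes rose and 8 fell (34.3% of all genes were called, 19.1% higher and 15.2% lower), so these calls were near the shares of all genes. With A62T none rose and 23 fell (50% of all genes were called, 45.4% higher and 4.6% lower), and with dF109 5 rose and 10 fell (37.6% of all genes were called, 34.3% higher and 3.34% lower). Scaling gave 3 higher and 8 lower, 0 and 38, and 0 and 18 (median of all genes at 0.04, 0.33 and 0.29). CDC20 stood at 220.2, 232 and 212 TPM in DMSO, 146, 127 and 107 with the empty vector (-0.81 ± 0.10), 143, 138 and 137 with A62T (-0.67 ± 0.10) and 144, 141 and 138 with dF109 (-0.65 ± 0.10). KIF20A stood at 77.03, 92.2 and 106 TPM in DMSO, 90.4, 90.8 and 93.3 with the empty vector (0.0089 ± 0.10), 54.4, 57.2 and 54.9 with A62T (-0.70 ± 0.10) and 65.5, 65.2 and 61.3 with dF109 (-0.50 ± 0.10). KIF20A was thus lower than in the pooled DMSO libraries with either variant and not with the empty vector. In the direct test empty vector and A62T differed by 0.71 ± 0.10, and empty vector and dF109 by 0.51 ± 0.10. The DMSO libraries of T3M-4 were themselves uneven in KIF20A and in other genes, such as CDC25C at 16.4, 20.1 and 29.3 TPM. Relative to their mean, the median of the set in DMSO was -0.098 with A62T, 0.00040 with dF109 and 0.10 with the empty vector. Differences between the vectors without CB-6644 are thus part of these values. The count with the empty vector was 31 without its CB-6644 replicate 1.

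NCAPH and PLK1 still set the empty vector apart in T3M-4. NCAPH stood at 34.7, 35.4 and 34.3 TPM in DMSO, 17.8, 17.4 and 16.2 with the empty vector, 24.7, 25.5 and 25.2 with A62T and 26.6, 26.4 and 26.1 with dF109, and differed from A62T by -0.53 ± 0.07 and from dF109 by -0.59 ± 0.07. PLK1 stood at 51.8, 35.6 and 22.4 TPM with the empty vector against 80.7, 71.2 and 66.1 in DMSO, and differed from A62T by -0.70 ± 0.21 (adjusted p = 0.0192). They were the 2 genes lower with the empty vector than with A62T, against 27 higher (50.6% of all genes were called, 9.21% higher and 41.4% lower), and the 2 lower than with dF109, against 11 higher (34.6% of all genes were called, 4.86% higher and 29.8% lower). Over the 6 lines, taking AsPC-1 and T3M-4 with the empty vector, 8 genes fell in every line (5.48% of all genes did), namely CCNB1, AURKA, PLK1, BUB1B, CDC20, UBE2C, CENPA and NCAPH. BIRC5 alone rose in every line (10.6% of all genes did), except that scaling turned it in H1048 as given above.

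Other cell cycle genes were counted beside the set. Of 50 further mitotic genes, 27 rose and none fell after sgCDK1 in AsPC-1 (16.7% of all genes tested were called, 10.3% higher and 6.44% lower), 12 and none in BxPC-3 (5.82% of all genes were called, 3.71% higher and 2.12% lower), and none rose and 5 fell in T3M-4 (16.8% of all genes were called, 13% higher and 3.85% lower). After sgRpa3 30 of the 50 fell in BxPC-3 (20.8% of all genes were called, 9.12% higher and 11.6% lower) and 29 in T3M-4 (24.6% of all genes were called, 18.4% higher and 6.2% lower), and none rose in either. Of 52 genes of G1/S and DNA replication, 28 rose and 2 fell after sgCDK1 in AsPC-1, 5 rose and none fell in BxPC-3, and none rose and 17 fell in T3M-4. After sgRpa3 none rose and 41 fell in BxPC-3, while 1 rose and 9 fell in T3M-4. After sgRUVBL1 in T3M-4 38 of the 52 replication genes fell and none rose (60.5% of all genes were called, 45.9% higher and 14.6% lower), with RRM2, a subunit of ribonucleotide reductase, at -1.12. For knockout of KLF5 the replication genes are given line by line, and differences between lines were not tested. In BxPC-3 experiment 2, 38 rose and none fell (34.6% of all genes were called, 21% higher and 13.6% lower), while 15 genes of mitosis and G2/M fell there, and in T3M-4 experiment 2 none rose and 28 fell (34.6% of all genes were called, 23.4% higher and 11.2% lower). After CB-6644 24 of the 52 replication genes rose and 19 fell in A-375 (81.1% of all genes were called, 51.5% higher and 29.7% lower), and 31 rose and 14 fell in H1048 (77.9% of all genes were called, 53.9% higher and 24% lower), so the rises were near the share of all genes. In A-375 RRM2 fell most of these (-1.998) and the helicase subunit GINS4 rose most (1.72).

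Regulators of the programme and of the cell cycle were counted in the same way, and the shares of all genes called in these comparisons are those just given. Of 15 subunits of MuvB, DREAM and NF-Y, 6 rose and none fell after sgCDK1 in AsPC-1, where MYBL2 rose from 88.8, 93.9, 92.2 and 80.1 TPM to 225 and 205 (1.27). In T3M-4 4 rose and 2 fell after sgRUVBL1, and in A-375 6 rose and 9 fell after CB-6644. The T3M-4 calls did not exceed the shares of all genes. Of 17 brakes on the cell cycle, 3 rose and 9 fell after sgCDK1 in AsPC-1, while 11 rose and 5 fell after sgRUVBL1 in T3M-4. The largest rises there were PLK3 (1.97) and the CDK inhibitor CDKN2B (1.65). In A-375 11 of the 16 brakes tested rose after CB-6644 and 2 fell, with BTG2 at 2.83 and PLK3 at 2.25. Of 17 subunits and partners of the anaphase-promoting complex, 2 rose after sgCDK1 in AsPC-1 (10.3% of all genes were higher). After sgRUVBL1 in T3M-4 3 rose and 7 fell (60.5% of all genes were called, 45.9% higher and 14.6% lower). The rises in AsPC-1 and the total called in T3M-4 were thus near the shares of all genes, while the falls in T3M-4 were above theirs. Of the other cyclins and CDKs, 3 of 8 tested rose and 2 fell after sgCDK1 in AsPC-1.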

How the data were processed

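RNA-seq of poly-A selected RNA (single-end reads) from 183 libraries was used as deposited in 8 tables of TPM, a share of all transcripts corrected for length. The authors made the TPM values by pseudo-aligning reads to hg38 with kallisto (version not given in the sources used here), removing low-abundance transcripts at a limit not given in the sources used here, and summarising transcripts to genes with tximport. Because TPM values are relative, a change in a few abundant transcripts shifts all others, and because depth is not kept, no counting error can be given. A pseudocount of 1 TPM was added, so log2 differences are on the log2(TPM + 1) scale and understate changes of low genes.

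For each line and experiment, 1 fit held all its libraries (limma 3.58.1 in R 4.3.3, empirical Bayes with trend, no covariates). Genes under a mean of 1 TPM were left out, and p-values were adjusted by Benjamini-Hochberg over all genes tested, with a threshold of 0.05. Tables of different lines were not tested against each other, except for CB-6644 in T84, A-375, H1048 and RH30, where 32 libraries entered 1 fit with a line by CB-6644 interaction. The text could name any of the 51 genes, and outside them the targeted genes, CDKN1A and up to 2 genes at each end of a list of other cell cycle genes. MYBL2 was named under that last rule in some comparisons and followed into the others after its values were seen. Members and lists were chosen with earlier results of these data known. Promoter sequences came from RefSeq (GRCh38.p14), which had no entry for 6 of the 51 genes. The fits were tested on simulated data with 200 changed genes. Alternatives were a pseudocount of 0.1 TPM, no filter, scaling by the median of ratios, a block for the replicate number, fits without 1 library at a time, and the EV DMSO library alone as control. Screen, proteomic, SLAM-seq and ChIP-seq data were not analysed here.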

Additional observations from a re-analysis of the deposited data

Results flagged for a closer look

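In 6 of 90 pairs of a group and a measure, the highest or lowest library lay farther from the others of its group than Dixon's 95% critical value allows, a limit that chance passes in about 1 in 20 groups. The measures were values of the set and of single genes, not the correlation over all genes. The median of the 51 genes relative to sgRosa was -0.23 in AsPC-1 sgRUVBL1 replicate 2 of experiment 2, -0.17 in AsPC-1 sgSERPINB5 replicate 4 and -0.21 in BxPC-3 sgKLF5 replicate 4 of experiment 2, each far from the other libraries of its group. CDK1 stood at 236 TPM in CFPAC-1 sgRosa replicate 4, at 112 TPM in SUIT-2 sgRosa replicate 2 and at 163 TPM in A-375 DMSO replicate 1, again apart from their groups.

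The response of the set to sgCDK1 went in opposite directions in different lines. Its median was 0.71 in AsPC-1 and 0.32 in BxPC-3, with both libraries of each above 0, and -0.20 in T3M-4, with both libraries below 0, and the difference between the lines was not tested. The effect of CB-6644 differed between T84, A-375, H1048 and RH30 for 50 of the 51 genes in limma's interaction test (86.2% of all genes called). In the direct tests between the empty vector and RUVBL1 A62T in CB-6644, 23 genes differed in AsPC-1 (51.1% of all genes called) and 29 in T3M-4 (50.6%). Between the empty vector and RUVBL2 dF109, 23 differed in AsPC-1 (47.2%) and 13 in T3M-4 (34.6%). These counts between vectors were near or below the shares of all genes called.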

How the results depend on the processing

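Of 190 counts of called genes under other settings, 174 stayed within 1.5 times the reported count. Scaling by the median of ratios moved 10. They became 20 for sgKLF5 in AsPC-1 experiment 1, 16 for sgKLF5 in T3M-4 experiment 1, 21 for sgCDK1 in T3M-4, 2, 18 and 4 for sgKLF5, sgRUVBL1 and sgRUVBL2 in CFPAC-1, 11 and 23 for A62T and dF109 in AsPC-1 with CB-6644, and 38 and 11 for A62T and the empty vector in T3M-4 with CB-6644. For sgKLF5 in T3M-4 experiment 1 the count was also 0 with a pseudocount of 0.1 TPM and 0 without the filter, and without the filter it was 2 for sgKLF5 in CFPAC-1. With the EV DMSO library alone as control, 15 genes passed for A62T in AsPC-1. The cause of these shifts was not tested.

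Same-numbered replicates did not deviate together throughout, since in no fit did every such pair correlate above 0.1. Some pairs did, such as 11 of 42 in AsPC-1 experiment 3 (median over pairs -0.0012) and 10 of 39 in T3M-4 experiment 2 (median 0.033). Whether some of these libraries shared a batch was not tested. With the replicate number as a block, 48 of 50 counts kept within 1.5 times, including 50 genes for the interaction and 43 for sgCDK1 in AsPC-1. The other counts were 34 for sgKLF5 in T3M-4 experiment 1 and 0 for sgRUVBL1 against sgRUVBL2 in AsPC-1, so that the call of CKS1B was lost.

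Leaving out single libraries moved 44 of 267 counts. For sgKLF5 the counts ran from 4 to 10 (AsPC-1 experiment 1), 4 (without sgKLF5 replicate 1) to 12 (AsPC-1 experiment 3), 1 (without sgRosa replicate 2) to 5 (BxPC-3 experiment 1), 0 to 30 (T3M-4 experiment 1) and 1 (without sgKLF5 replicate 1) to 5 (CFPAC-1). For sgCDK1 they ran from 7 to 20 in BxPC-3 and 5 to 18 in T3M-4. For sgRpa3 they ran from 13 to 33 in BxPC-3 experiment 2, 23 to 44 in T3M-4 experiment 2 and 2 (without replicate 2) to 8 in CFPAC-1. For sgRUVBL2 they ran from 18 to 30 in BxPC-3 and from 1 (without replicate 1) to 13 (without sgRosa replicate 4) in CFPAC-1. With CB-6644 they ran from 0 (without its replicate 1) to 11 (without the A62T DMSO library) for A62T and from 6 (without its replicate 1) to 17 for dF109 in AsPC-1, and from 13 to 31 for the empty vector in T3M-4. A fit that left a group with a single library took its spread from the other groups.

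Of 4360 values of single genes, 3970 kept their direction and side of the threshold, 373 no longer passed it and 17 changed sign, all under scaling. In AsPC-1 with CB-6644 these were NCAPD2 (-0.00043) and CENPF (-0.0084) with dF109, and NUSAP1 (-0.066), KIF2C (-0.060) and HMMR (-0.024) with the empty vector. In T3M-4 with dF109 they were ECT2 (-0.0032), ANLN (-0.072) and KIF11 (-0.076). In T84 it was CDK1 (-0.0079), in A-375 PTTG1 (-0.062), CKS1B (-0.052) and TACC3 (-0.020), in H1048 TACC3 (-0.012), BIRC5 (-0.048), SMC2 (-0.060) and HMMR (-0.067), and in RH30 KIF2C (-0.045).

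TPM keep no depth, so the precision of low genes such as CENPE is unknown, and the longest transcripts varied most among the knockout controls (SD of 1.01 on the log2 scale in SUIT-2, against 0.39 for the other genes). With 2 libraries in a group, as for sgCDK1 and sgRpa3, a count can rest on 1 library. A gene past the threshold in 1 line and not in another is not shown to differ between them.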
